A study of Mus musculus with 10 samples.

Results

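The genes described here are 10 transcription factors that mark or pattern the lung mesenchyme, among the 54532 genes of a table of mouse lung RNA. They were taken by gene name. The forkhead factors were Foxf1 and Foxf2, the T-box factors were Tbx2, Tbx3, Tbx4 and Tbx5, the basic helix-loop-helix (bHLH) factors were Tcf21, Twist1 and Twist2, and the homeobox factor was Meox2. All 10 were found, each in 1 row. The study asked how increased pulmonary blood flow (IncPBF) affects the alveoli of young mice. Pups of the C57/BL6 strain, male or female by the methods and WT by the labels, had surgery at postnatal day 7 (P7) under isoflurane. In the IncPBF group (n = 5) the abdominal aorta was punctured through into the inferior vena cava, which makes a fistula, and the sham group (n = 5) had the same operation with no puncture. Whole lungs were taken at P14 for bulk RNA-sequencing, so every control lung also came from an anaesthetised pup with an opened abdomen. The model overloads the venous side through an abdominal fistula, and no group without surgery is in the table. The labels give each lung as a sample of its own but do not name the animal or litter, so p values measure the spread between these samples. In bulk tissue, fewer cells of a type and less RNA per cell cannot be told apart.

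The lung mesenchyme holds fibroblasts, myofibroblasts, smooth muscle, pericytes and mesothelium, which surround the epithelium and shape the alveoli. Foxf1 and Foxf2 are hedgehog-responsive factors of this mesenchyme, and Foxf1 is also made in lung endothelium. Tbx2 to Tbx5 act in the lung bud mesenchyme, where Tbx4 and Tbx5 support branching. Tcf21 marks fibroblast progenitors and lipid-storing fibroblasts. Twist1 and Twist2 are known from mesenchymal identity and epithelial-to-mesenchymal transition, and Meox2 from vascular and muscle development.

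Values are FPKM, which is the sequenced fragments of a gene divided by its length in kilobases and by a size set for the library. That size was 1.02 to 1.07 times the fragments on genes in IncPBF lungs and 0.958 to 1.03 times in sham lungs. In sham lungs 1, 2 and 5 it was under the fragments on genes, so it was not a plain library total. The lungs had 16103423 to 20318525 fragments on genes, and 1 fragment on a gene of 1 kb was worth 0.0482 to 0.0580 FPKM. Xist, the RNA of the silenced X chromosome, had 52.4 to 66.5 FPKM in 4 of the IncPBF lungs, but 0.0144 FPKM in IncPBF lung 1 and no more than 0.0770 FPKM in any sham lung. Ddx3y of the Y chromosome had 18.6 FPKM in IncPBF lung 1, 21.8 to 24.6 FPKM in sham lungs and no more than 0.00926 FPKM in the other 4 IncPBF lungs. Sex-linked expression therefore differed between the groups apart from IncPBF lung 1, and its part cannot be fully told apart from that of the fistula. Sham lung 5 stood apart in the club cell gene Scgb1a1, with 128 FPKM against 4802 to 11743 FPKM in the other 9 lungs. The alveolar epithelial markers, which define the lung, summed to 11383 to 16762 FPKM per lung. Mesenchymal markers were present in every lung, with alveolar fibroblast markers summing to 3034 to 4576 FPKM.

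The 250 bases before the start of Foxf2, Twist1, Twist2 and Meox2 are shown, since these genes were higher together in the IncPBF group and a divergent RNA starts inside the Foxf2 window. The sequences are from RefSeq (GRCm38.p6), plus strand, 5′ to 3′. Capitals mark matches to 4 common promoter motifs, whose letters are given after the sequences and which were searched on both strands. The windows lie at chr13:31625566-31625815 (Foxf2), chr12:33957421-33957670 (Twist1), chr1:91801211-91801460 (Twist2) and chr12:37108290-37108539 (Meox2).
Foxf2: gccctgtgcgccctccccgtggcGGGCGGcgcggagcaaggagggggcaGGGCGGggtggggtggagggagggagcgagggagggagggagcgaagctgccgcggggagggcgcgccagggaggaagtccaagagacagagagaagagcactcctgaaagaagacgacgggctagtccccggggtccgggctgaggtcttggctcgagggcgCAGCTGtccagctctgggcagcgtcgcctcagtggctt
Twist1: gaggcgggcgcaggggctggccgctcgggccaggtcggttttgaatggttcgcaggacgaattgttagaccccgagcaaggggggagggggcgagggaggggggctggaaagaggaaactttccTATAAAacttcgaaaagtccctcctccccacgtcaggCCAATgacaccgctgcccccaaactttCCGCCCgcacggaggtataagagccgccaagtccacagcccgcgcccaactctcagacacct
Twist2: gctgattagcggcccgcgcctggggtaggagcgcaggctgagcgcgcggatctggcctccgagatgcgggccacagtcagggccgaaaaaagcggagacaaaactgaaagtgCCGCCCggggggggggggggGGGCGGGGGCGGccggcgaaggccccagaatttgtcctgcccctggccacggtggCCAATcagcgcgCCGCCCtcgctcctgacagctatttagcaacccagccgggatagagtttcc
Meox2: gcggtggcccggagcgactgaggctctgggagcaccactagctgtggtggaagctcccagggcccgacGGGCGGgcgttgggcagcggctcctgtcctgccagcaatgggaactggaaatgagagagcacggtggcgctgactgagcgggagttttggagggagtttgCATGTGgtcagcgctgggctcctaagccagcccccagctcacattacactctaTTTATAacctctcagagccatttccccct

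All 4 windows were richer in CG dinucleotides than most promoters. They held 21 (Foxf2), 18 (Twist1), 23 (Twist2) and 12 (Meox2), against a median of 6 over 32851 promoter windows. Each held a GC box (GGGCGG), which 32.7% of all windows had, and Twist2 held 4. Meox2 had a TATA box (TATAAA) 29 bases before its start, read on the opposite strand, and Twist1 had one 126 bases before its start. A TATA box was in 12.4% of all windows. Twist1 and Twist2 had a CCAAT box, at 89 and 63 bases before the start, as did 33.8% of all windows. E-boxes (CANNTG), the site class of bHLH factors, stood in the Foxf2 window (38 bases before the start) and the Meox2 window (82 bases), and in 66.2% of all windows. The letters GTAAACA (forkhead), GGTGTGA (T-box) and GACCACCCA (GLI) were in none of the 4 windows, and in 3.17%, 3.33% and 0.225% of all windows. A match is a run of letters and no measured binding.

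In the IncPBF lungs 5 of the 10 factors were higher and 0 lower by limma, at a Benjamini-Hochberg adjusted p under 0.05 over the 15388 genes tested. At an unadjusted p under 0.05 by limma 1 factor (Tbx3) was lower, and by limma-voom 0 were lower after adjustment. Of all genes tested, 32.3% passed, 16.1% higher and 16.2% lower. With each lung scaled to an equal total, 3559 genes rose and 1782 fell against 2480 and 2490, and 5 factors were again higher and 0 lower. The risers were both forkhead factors, both Twist factors and Meox2. The 4 T-box factors and Tcf21 did not pass. All 10 reached the minimum mean of 0.5 FPKM, but Twist1 and Twist2 were below it in the sham group and reached it through the IncPBF lungs, and of the other 8 factors 3 were higher. The median log2 fold change of the 10 factors was 0.23, against 0.01 over all genes tested. All 5 risers had every IncPBF lung above every sham lung, which 12% of all genes had. The 10 factors were chosen with earlier results of these data known, so setting them beside all genes is no independent test. Fold changes are IncPBF minus sham on log2(FPKM + 0.1), and the pseudocount of 0.1 lowers them for genes with few fragments.

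**Figure D1:**
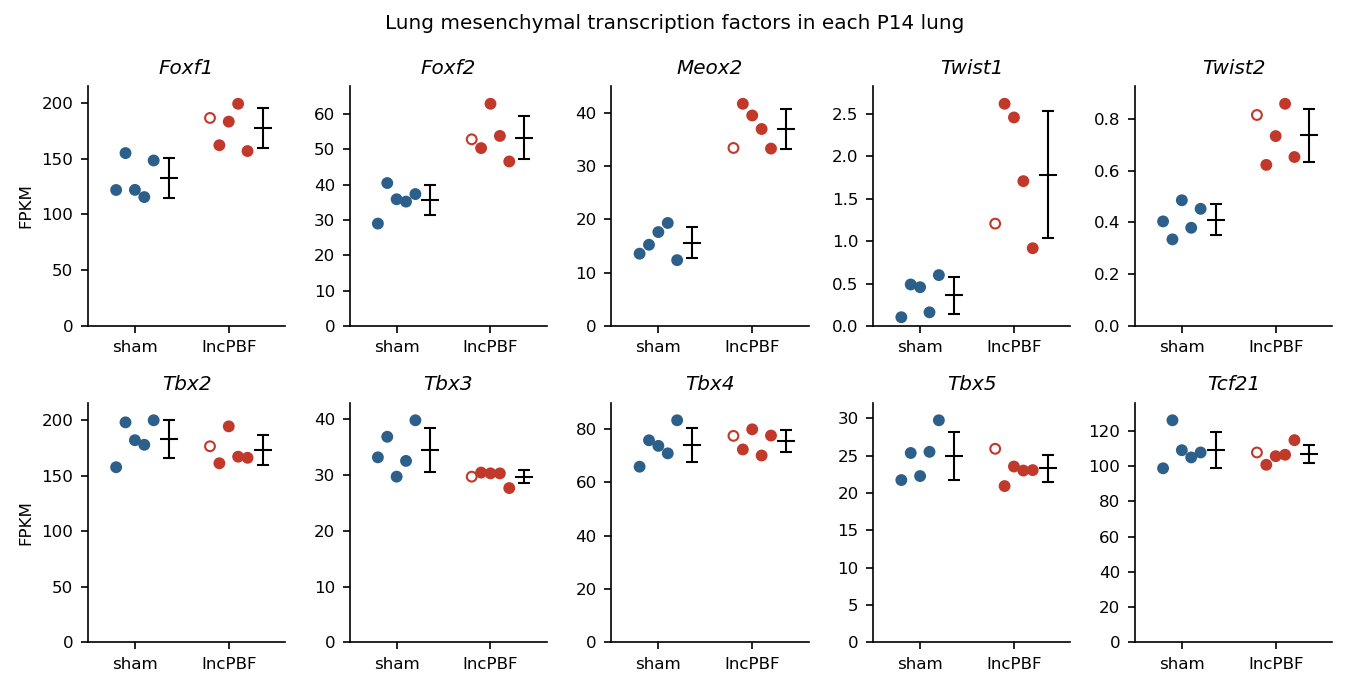
FPKM of each factor in the 5 sham and 5 IncPBF lungs (linear axes from 0, 1 point per lung in the order of the lung numbers, bars mean ± SD). The open point is IncPBF lung 1, the IncPBF lung with Xist near 0. The groups are apart for the 5 factors in the top row and overlap for the 5 in the bottom row.

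Foxf1, a forkhead factor of mesenchyme and endothelium (ENSMUSG00000042812, chromosome 8, 121084386 to 121088144, plus strand, GRCm38), was 187, 162, 183, 199 and 157 FPKM in IncPBF lungs 1 to 5 and 122, 155, 122, 116 and 148 FPKM in sham lungs 1 to 5. The lowest IncPBF lung lay just above the highest sham lung. The means were 178 ± 17.7 and 133 ± 17.8 FPKM (SD, n = 5 each), a log2 fold change of 0.43 (SE 0.10, 95% interval 0.21 to 0.64, limma adjusted p = 0.00769). Its exact two-sided permutation p was 0.00794, the smallest that 5 lungs against 5 can give, and the other 4 risers had the same p.

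Foxf2, its relative on chromosome 13 (ENSMUSG00000038402, 31625816 to 31631403, plus strand), was 52.8, 50.3, 62.9, 53.8 and 46.5 FPKM in IncPBF and 29.0, 40.4, 35.8, 35.2 and 37.3 FPKM in sham lungs. The groups did not overlap. The means were 53.3 ± 6.05 and 35.5 ± 4.20 FPKM, and the log2 fold change was 0.58 (SE 0.10, interval 0.37 to 0.80, limma adjusted p = 0.00117). The log2 ratio of Foxf1 to Foxf2 within a lung changed by -0.16, an exact permutation p of 0.119 (adjusted 0.159 over the 6 ratios tested), so a different change of the pair was not detectable.

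Meox2, the homeobox factor (ENSMUSG00000036144, chromosome 12, 37108540 to 37179534, plus strand, with 3 exons in its coding transcript), was 33.4, 41.7, 39.5, 36.9 and 33.3 FPKM in IncPBF and 13.6, 15.2, 17.6, 19.3 and 12.3 FPKM in sham lungs. The lowest IncPBF lung was far above the highest sham lung. The means were 36.9 ± 3.71 and 15.6 ± 2.86 FPKM. The log2 fold change was 1.25 (SE 0.12, interval 0.99 to 1.51, limma adjusted p = 4.00e-05), or 2.38-fold. Only 193 of the genes tested had a larger rise.

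Twist1, a bHLH factor (ENSMUSG00000035799, chromosome 12, 33957671 to 33959829, plus strand), was 1.21, 2.62, 2.46, 1.71 and 0.917 FPKM in IncPBF and 0.103, 0.489, 0.457, 0.161 and 0.600 FPKM in sham lungs. No lungs overlapped, but the spread within both groups was wide. These values rest on 31 to 80 fragments per IncPBF lung and 3 to 17 per sham lung. The means were 1.78 ± 0.750 and 0.362 ± 0.218 FPKM, and the ratio of the means was 4.93. The log2 fold change was 2.09 (SE 0.40, interval 1.21 to 2.97, limma adjusted p = 0.00265), and 33 genes tested had a larger rise.

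Twist2 (ENSMUSG00000007805, chromosome 1, 91801461 to 91848028, plus strand), the relative of Twist1, was 0.815, 0.622, 0.733, 0.858 and 0.652 FPKM in IncPBF and 0.404, 0.334, 0.485, 0.379 and 0.452 FPKM in sham lungs. The groups did not overlap, at 37 to 50 and 20 to 29 fragments per lung. The means were 0.736 ± 0.101 and 0.411 ± 0.0595 FPKM, and the log2 fold change was 0.71 (SE 0.19, interval 0.30 to 1.12, limma adjusted p = 0.0143). The log2 ratio of Twist1 to Twist2 rose by 1.38 with an exact permutation p of 0.0159, but its adjusted p of 0.0952 missed the threshold. Counting error alone is large for both genes. No molecular identifiers are named in the sources, so counts of fragments are not counts of molecules.

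Tbx2, a repressor of the T-box family (ENSMUSG00000000093, chromosome 11, 85832551 to 85841948), was 177, 161, 195, 167 and 166 FPKM in IncPBF and 158, 198, 182, 178 and 200 FPKM in sham lungs. The lungs of both groups overlapped, and the log2 fold change was -0.08 (interval -0.25 to 0.09, limma adjusted p = 0.476). Its neighbour Tbx4 (ENSMUSG00000000094, 85886422 to 85916097) lies 44.5 kb away and was 70.1 to 79.9 FPKM in IncPBF and 65.9 to 83.3 FPKM in sham lungs. Its log2 fold change was 0.03 (interval -0.11 to 0.18, limma adjusted p = 0.744).

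Tbx3 (ENSMUSG00000018604, chromosome 5, 119670669 to 119684724), the close relative of Tbx2, was 29.6, 30.4, 30.2, 30.2 and 27.6 FPKM in IncPBF and 33.1, 36.8, 29.7, 32.5 and 39.7 FPKM in sham lungs. Sham lung 3 was the only sham lung within the IncPBF range. The log2 fold change was -0.21 (SE 0.07, interval -0.37 to -0.04), with a limma p of 0.0180 that became 0.0542 after adjustment. Without sham lung 3 it was -0.26 with a limma adjusted p of 0.0145, and leaving out no other lung moved Tbx3 past the threshold. Without sham lung 5 it was smaller, at -0.15 (limma adjusted p = 0.110). With an equal total per lung it was -0.13 (limma adjusted p = 0.153). Tbx5 (ENSMUSG00000018263, 119832668 to 119885219), 147.9 kb from Tbx3, was 20.9 to 25.9 FPKM in IncPBF and 21.7 to 29.7 FPKM in sham lungs, with a log2 fold change of -0.09 (interval -0.28 to 0.10, limma adjusted p = 0.457).

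None of the 6 ratios tested between related factors passed the threshold after adjustment (2 had an unadjusted exact permutation p under 0.05), and 4 of them were between T-box factors. Of these 4 the nearest to the threshold was Tbx2 to Tbx4, which fell by 0.11 with an exact permutation p of 0.0317 (adjusted 0.0952). Tbx2 to Tbx3 changed by 0.13 (adjusted 0.159), Tbx4 to Tbx5 by 0.12 (adjusted 0.143) and Tbx3 to Tbx5 by -0.12 (adjusted 0.159), each by the same exact permutation test.

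Tcf21, the bHLH factor of lipid-storing fibroblasts (ENSMUSG00000045680, chromosome 10, 22817281 to 22820174, minus strand), was 108, 101, 106, 106 and 115 FPKM in IncPBF and 98.7, 126, 109, 105 and 108 FPKM in sham lungs. The groups overlapped almost fully. The log2 fold change was -0.03 (interval -0.17 to 0.12, limma adjusted p = 0.799). For the 5 factors that did not pass, the intervals together ran from 0.774-fold to 1.13-fold, and changes beyond these bounds lay outside all 5 intervals.

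**Figure D2:**
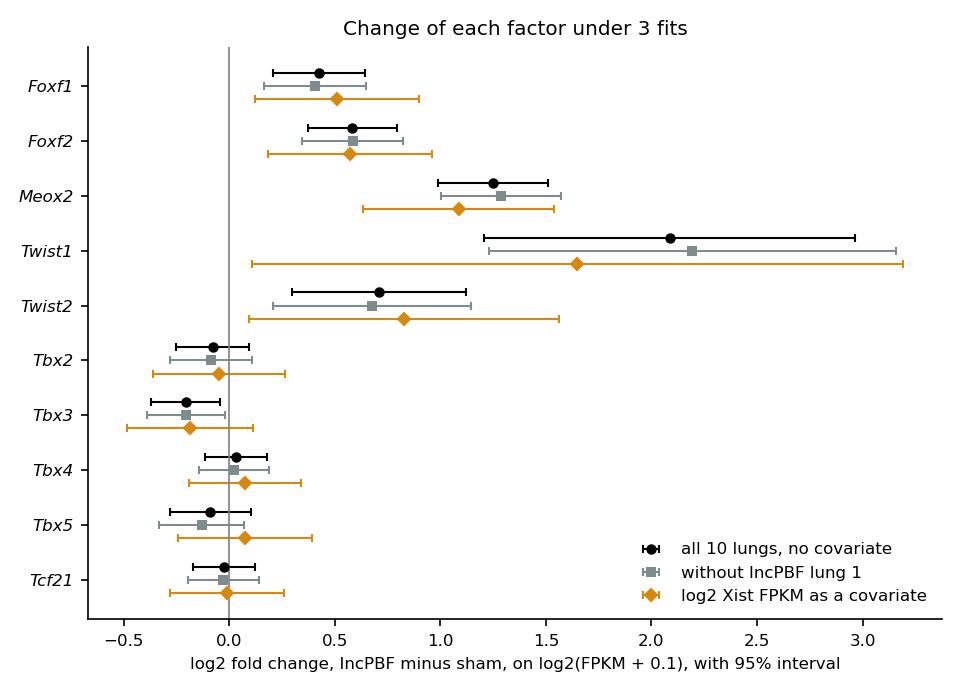
Log2 fold change (IncPBF minus sham, on log2(FPKM + 0.1)) of each factor with its 95% interval, from all 10 lungs, without IncPBF lung 1, and with log2 Xist FPKM as covariate. The first pair of fits lie close together, and the covariate widens every interval. Meox2 stays at 1.09 with the covariate.

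IncPBF lung 1, whose Xist level was like that of the sham lungs, lay above all 5 sham lungs for each of the 5 risers. Its log2 difference from the sham mean was 0.50 for Foxf1, 0.58 for Foxf2, 1.66 for Twist1, 0.85 for Twist2 and 1.11 for Meox2. For IncPBF lungs 2 to 5 the same differences were 0.41, 0.58, 2.19, 0.68 and 1.29. With a covariate for the log2 FPKM of Xist, 4.82% of all genes passed, 2.13% higher, and Meox2 was the only factor of the 10 that did (log2 fold change 1.09, limma adjusted p = 0.0179). The estimates of the others were 0.51 for Foxf1 (limma adjusted p = 0.132), 0.57 for Foxf2 (0.0947), 1.65 for Twist1 (0.212) and 0.83 for Twist2 (0.189). In this fit the group difference rests mostly on that 1 lung.

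The order of levels changed between the groups. FPKM divides by the deposited gene length, and which transcripts were made is not known, so levels of different genes can be set side by side only roughly. In the sham lungs Tbx2 led with a mean of 183 FPKM, followed by Foxf1 and Tcf21, whose ranges overlapped. In the IncPBF lungs Foxf1 and Tbx2 led with 178 and 173 FPKM, and Foxf1 was above Tbx2 in 3 of 5 lungs against 0 of 5 sham lungs. Meox2 was above Tbx3 and above Tbx5 in all 5 IncPBF lungs and below both in all 5 sham lungs. Twist1 was above Twist2 in all 5 IncPBF lungs and in 2 of 5 sham lungs. Among the 936 genes tested that the table assigns to a transcription factor family, Tbx2, Foxf1 and Tcf21 ranked 3, 5 and 6 by sham mean, Meox2 161, and Twist2 and Twist1 932 and 933. These 936 genes had 143 higher and 148 lower in the IncPBF lungs, 31.1% in all, against 32.3% of all genes tested.

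The genes beside the risers did not move with them in every case. Fendrr, a long noncoding RNA that starts 1275 bases from Foxf1 on the opposite strand, was 43.4, 38.2, 47.0, 48.7 and 34.4 FPKM in IncPBF and 42.0, 36.6, 59.4, 44.8 and 47.7 FPKM in sham lungs. The groups overlapped, and its log2 fold change was -0.12 (limma adjusted p = 0.529). The log2 ratio of Foxf1 to Fendrr rose by 0.54, an exact permutation p of 0.0238 (adjusted 0.0429 over the 9 pairs of a factor and a tested neighbour, chosen after the data were seen). The ratio of Foxf1 to Mthfsd, on its other side, rose by 0.35 (exact permutation, adjusted p = 0.0357). Both calls were lost without any 1 of the IncPBF lungs or without sham lung 3 or 4, at adjusted p of 0.0536 to 0.1, while the Foxf1 to Fendrr ratio stayed between 0.42 and 0.68.

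At Foxf2 the noncoding 1700018A04Rik starts 23 bases away on the opposite strand, inside the printed window. It was 1.46, 1.37, 1.59, 1.15 and 1.27 FPKM in IncPBF and 0.661, 0.932, 1.10, 0.670 and 0.872 FPKM in sham lungs. Every IncPBF lung was above every sham lung. Its log2 fold change was 0.65 (SE 0.16, limma adjusted p = 0.00971), beside 0.58 for Foxf2, and the log2 ratio of the pair changed by -0.07 (exact permutation, adjusted p = 0.579).

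**Figure D3:**
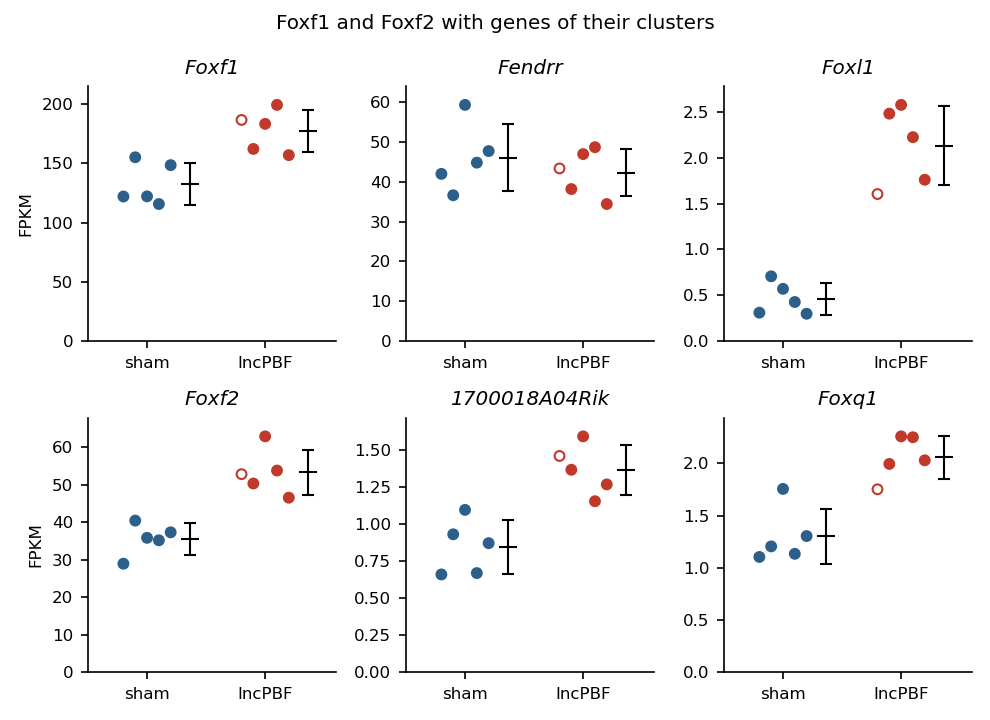
FPKM of Foxf1 and Foxf2 and of genes beside them in the 5 sham and 5 IncPBF lungs (linear axes from 0, bars mean ± SD, open point IncPBF lung 1). Fendrr overlaps between the groups, while Foxl1 and 1700018A04Rik are higher in every IncPBF lung.

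Other forkhead genes lie in the same clusters. Foxl1, a factor of mesenchymal cells under epithelium, lies 39.8 kb from Foxf1 and was 2.13 ± 0.433 FPKM in IncPBF and 0.462 ± 0.175 FPKM in sham lungs, a log2 fold change of 2.02 (limma adjusted p = 0.000103). Like the Twist genes, Foxl1 was under the minimum of 0.5 FPKM in the sham group and was tested only through its level in the IncPBF lungs. Foxq1, 64.8 kb from Foxf2, was 2.06 ± 0.209 and 1.30 ± 0.265 FPKM (0.64, limma adjusted p = 0.00421), and 1 sham lung reached the IncPBF range. Foxc2 and Foxc1, in the same clusters, were under the FPKM minimum and not tested. The other tested genes of the list of mesenchymal forkhead genes, Foxs1, Foxp1 and Foxp2, did not pass (log2 fold changes 0.07, -0.15 and 0.17, limma adjusted p = 0.759, 0.0715 and 0.388). Over the whole forkhead family, Foxf1 and Foxf2 left out, 20 genes were tested, of which 3 rose and 7 fell, with a median log2 fold change of -0.08. Of all genes tested 16.1% rose and 16.2% fell.

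At the other factors, Agmo, an ether lipid enzyme gene 62106 bases from Meox2, went the other way. It was 0.825 ± 0.0671 FPKM in IncPBF and 1.24 ± 0.0824 FPKM in sham lungs (log2 fold change -0.54, limma adjusted p = 0.00481), and the log2 ratio of Meox2 to Agmo rose by 1.79 (exact permutation, adjusted p = 0.0238). The groups were apart for both genes, in opposite directions, so the ratio had to be apart too. Its p adds nothing to the results of the single genes. Hdac9, beside Twist1, had a log2 fold change of -0.13 (limma adjusted p = 0.611), and the ratio of Twist1 to Hdac9 rose by 2.22 (exact permutation, adjusted p = 0.0238). Twist1 had 3 to 17 fragments per sham lung and reached the FPKM minimum only through the IncPBF lungs. This ratio therefore largely restates the rise of Twist1. Gm10824, an antisense gene that overlaps Tcf21, rose by 0.36 (limma adjusted p = 0.0361) at 57 to 105 fragments per lung. The log2 ratio of Tcf21, which was no riser, to Gm10824 changed by -0.39 (exact permutation, adjusted p = 0.0238). The sources do not state whether counting used strand, so reads of Gm10824 and Tcf21 cannot be told apart.

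The neighbours of the T-box factors did not pass the threshold. The noncoding 2610027K06Rik, 327 bases from Tbx2, had a log2 fold change of -0.16 (limma adjusted p = 0.208). Tbx3os1, which overlaps Tbx3 on the other strand, had 0.06 (limma adjusted p = 0.791), with the same limit on strand. Gm43050, 747 bases from Tbx5, had 0.06 (limma adjusted p = 0.676). The remaining nearest or overlapping genes of the 10 factors were below the FPKM minimum, with no more than 11 fragments in any lung.

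Relatives of the factors were described from lists of family members. Beside their counts, 16.1% of all genes tested rose and 16.2% fell by limma. Of the other T-box genes 3 of 13 were tested, none rose, and Tbx6 fell by 0.54 (limma adjusted p = 0.00773). Of the bHLH relatives of Twist and Tcf21 3 of 7 were tested and 2 rose, which were Tcf15, a factor of early mesoderm, by 1.42 (limma adjusted p = 0.000254) and the tendon factor Scx by 0.43 (limma adjusted p = 0.0206). Of the bHLH partners and Id inhibitors, which pair with Twist and Tcf21 or block their pairing, 6 of 7 rose and none fell, with a median log2 fold change of 0.33. The largest were the inhibitors Id4, from 4.26 ± 0.487 to 6.28 ± 0.938 FPKM (0.55, limma adjusted p = 0.00368), and Id2, from 31.6 ± 3.40 to 42.9 ± 1.41 FPKM (0.44, limma adjusted p = 0.000832). With the Xist covariate 0 of these 7 passed, in a fit where 4.82% of all genes did. Over the whole bHLH family, the 3 factors left out, 50 genes were tested, of which 13 rose and 12 fell, with a median of -0.03.

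Among the other mesenchymal transcription factors 26 of 32 were tested, 13 rose and 3 fell, while 16.1% of all genes tested rose and 16.2% fell. The homeobox factor Prrx2 rose by 1.23 (limma adjusted p = 0.00104) and Snai2, a repressor of epithelial genes, by 0.91 (limma adjusted p = 8.52e-05). Zeb1 fell by 0.30 (limma adjusted p = 0.00171) and Meis2 by 0.29 (limma adjusted p = 0.0477). With the Xist covariate 5 of the 26 passed, against 4.82% of all genes. With an equal total per lung 17 rose and 1 fell.

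Genes known as targets or downstream partners of the factors moved both ways: 5 of the 17 tested rose and 6 fell, with a median log2 fold change of -0.09. Of all genes tested 16.1% rose and 16.2% fell. Shisa3, an inhibitor of Wnt and Fgf receptors, rose from 0.278 ± 0.171 to 1.78 ± 0.306 FPKM (2.47, limma adjusted p = 0.000589). It was under the minimum of 0.5 FPKM in the sham group and was tested only through the IncPBF lungs, and Wnt2b, which fell, only through the sham lungs. The mesenchymal ligand Wnt2 rose from 8.35 ± 1.13 to 13.7 ± 0.562 FPKM (0.71, limma adjusted p = 0.000149). Pdgfra, the receptor of alveolar fibroblast and myofibroblast precursors, fell from 58.1 ± 12.4 to 22.4 ± 3.42 FPKM (-1.36, limma adjusted p = 9.01e-05). The cell cycle inhibitor Cdkn1a fell by 0.95 (limma adjusted p = 0.000927). With the Xist covariate 3 of the 17 passed, against 4.82% of all genes.

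**Figure D4:**
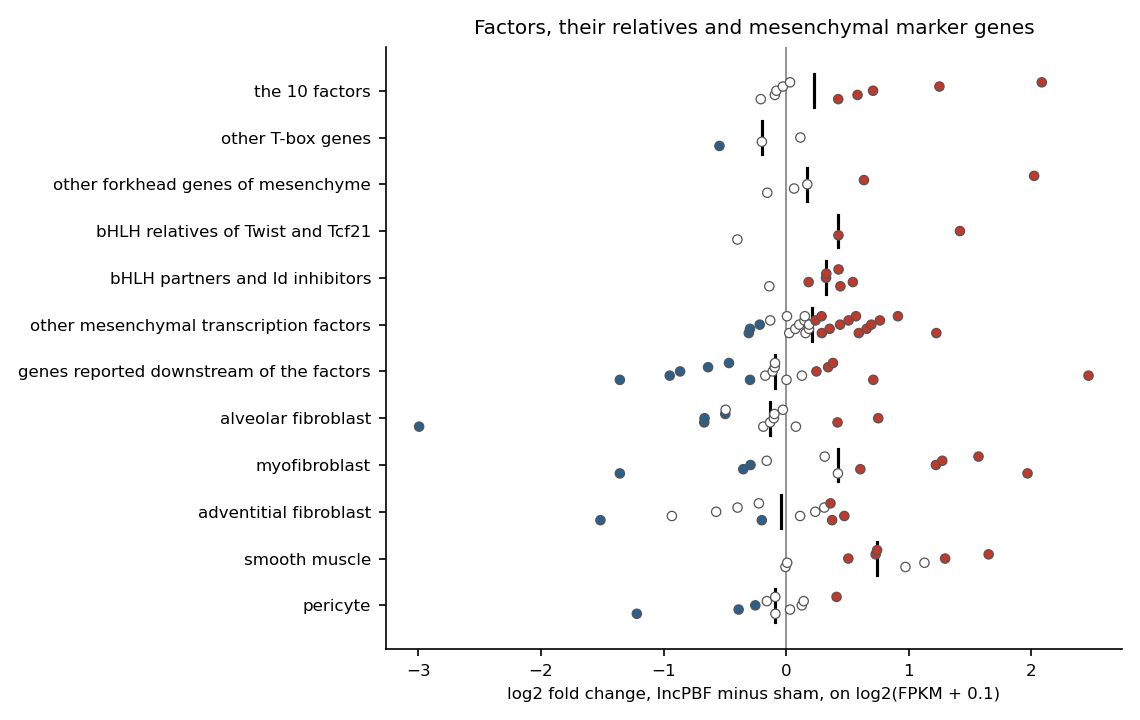
Log2 fold change (IncPBF minus sham, on log2(FPKM + 0.1)) of each tested gene of the 10 factors, their relatives and mesenchymal marker lists, 1 point per gene. Filled points passed the limma threshold (red higher, blue lower), and vertical bars are list medians. The medians are 0.74 for smooth muscle markers, 0.42 for myofibroblast markers and -0.13 for alveolar fibroblast markers.

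Markers of mesenchymal cell types went both ways, and many did not pass. Beside the counts below, 16.1% of all genes tested rose and 16.2% fell. Of 9 smooth muscle markers 5 rose and none fell, and their summed level was 200 to 358 FPKM in IncPBF and 93.0 to 181 FPKM in sham lungs. The largest rises were Actg2 (1.65, limma adjusted p = 0.00234) and Tpm2 (1.30, limma adjusted p = 0.000758). Of 11 myofibroblast markers 5 rose and 3 fell, at 836 to 1128 and 477 to 713 FPKM in sum. Tgfbi rose by 1.97 (limma adjusted p = 0.00011), with means of 232 FPKM in IncPBF and 62.6 FPKM in sham lungs. Acta2 rose by 1.57 (limma adjusted p = 0.000783), with means of 313 and 108 FPKM. Acta2, a smooth muscle actin gene, and Tgfbi held the largest parts of the difference in sum. The higher sum is therefore not particular to myofibroblasts. Nkd1 and Pdgfra, which is also in the list of downstream genes, were the largest falls. With the Xist covariate 0 of the smooth muscle and 4 of the myofibroblast markers passed, against 4.82% of all genes.

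The shares of all genes tested stay 16.1% higher and 16.2% lower for the next lists. Of 13 alveolar fibroblast markers 2 rose (Gyg and Enpep) and 4 fell, among them Inmt by 2.99 and Limch1 by 0.67. Their sum was 3034 to 3330 FPKM in IncPBF and 3541 to 4576 FPKM in sham lungs. Mfap4, which did not pass, made up most of it, with means of 2145 FPKM in IncPBF and 2368 FPKM in sham lungs. Inmt had means of 64.8 and 502 FPKM. Of 12 adventitial markers 3 rose and 2 fell, at 758 to 883 and 1004 to 1320 FPKM. The lower sum came from Gsn, an actin-binding protein gene, at 214 to 251 FPKM in IncPBF and 493 to 791 FPKM in sham lungs. Without Gsn the other 11 summed to 544 to 632 FPKM against 432 to 530 FPKM, the opposite direction. Of 10 pericyte markers 1 rose and 3 fell, at 343 to 373 and 307 to 396 FPKM. All 7 mesothelial markers tested fell, at 97.2 to 127 and 141 to 223 FPKM, while Wt1 was below the minimum. Of these 7, 2 had no overlap between the groups. Without sham lung 5 the count was 5 of 7, and with an equal total per lung 6 of 7. With the Xist covariate 1 alveolar fibroblast, 1 adventitial, 0 pericyte and 2 mesothelial markers passed, against 4.82% of all genes. The part of these markers in the results for the factors was not tested.

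Other cell types gave further values beside the factors, again with 16.1% of all genes tested higher and 16.2% lower. Of 10 capillary endothelial markers 7 fell and none rose, at 1268 to 1354 FPKM in IncPBF and 1394 to 1748 FPKM in sham lungs. Endothelium also makes Foxf1, and its part in the Foxf1 level was not tested. Of 10 alveolar epithelial markers 6 fell. Of 8 leukocyte markers 1 (Lyz2) fell, by 0.78, and 7 did not pass. Lyz2 had means of 1389 FPKM in IncPBF and 2366 FPKM in sham lungs, against 3.42 and 3.32 FPKM for Ptprc. Its fall is therefore no measure of leukocytes as a whole. With the Xist covariate 1 capillary endothelial, 0 alveolar epithelial and 0 leukocyte markers passed, against 4.82% of all genes. Of 3 chondrocyte markers tested only Sox9 rose, and the defining Col2a1, Acan and Matn1 were below the minimum. None of the 3 cardiac muscle markers tested passed. The part of these cell types was likewise not tested.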

How the data were processed

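Bulk RNA-sequencing covered 5 IncPBF and 5 sham lungs at P14. The authors prepared NEBNext libraries from total RNA (a column kit in the methods, Trizol in the labels), sequenced them on a NovaSeq instrument and deposited FPKM with the gene length that enters it. The submitters' processing notes name Bowtie 0.12.2 and the builds hg38, GRCm38 and mm10, with no role; the counting software and strand setting are not given in the sources used here. Coordinates of 98.3% of the genes shared with GENCODE M21 on GRCm38 were identical, and so were those of all 10 factors. The IncPBF columns carry the letters vo where the titles have others; the series' design text speaks of volume overload, and they were assigned to that group as a whole; 1 to 5 are column numbers.

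FPKM times gene length, divided by the value of 1 fragment per lung, gave whole fragments for 100% of the values (tolerance 0.05 fragments). limma 3.58.1 (eBayes with a trend, R 4.3.3) compared log2(FPKM + 0.1) between the groups for the 15388 genes whose mean FPKM reached 0.5, and p values were adjusted over all of them. Single values and ratios within a lung used exact two-sided permutation. limma-voom used the recovered fragments as an alternative. The method was tested on simulated data. Promoter windows, figures and counts were made with Python 3.11.15. RefSeq promoter sequences matched 6 of the 10 factors.

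The members and gene lists were chosen with earlier results of these data known. The rule for named genes covered the 10 factors, their nearest and overlapping genes, and up to 2 of the largest rises and falls of each list, of which the text gives examples for the marker lists; Scgb1a1, Wnt2b and the untested or uncalled forkhead genes were added after their values were seen. Alternatives were the pseudocount, the filter, 3 scalings, the replicate block, Xist as a covariate, eBayes without a trend, and each lung left out.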

Additional observations from a re-analysis of the deposited data

Results flagged for a closer look

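Tbx3 in IncPBF lung 5 was 27.6 FPKM, apart from the other 4 IncPBF lungs, which lay close together. The gap to the next lung was 0.738 of the range of the group. A single value was singled out among 20 checks of 10 factors in 2 groups, and chance singles out about 1 group in 20.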

How the results depend on the processing

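The count of 5 higher factors was the same under every alternative run but the Xist covariate, which left 1 (Meox2), and a minimum mean of 1 FPKM, which left 4 of 9 because Twist2 was not tested. The count of lower factors was 0, and 0 to 1 when each lung was left out in turn. An equal total per lung gave 3559 genes higher and 1782 lower against 2480 and 2490, and moved the median log2 fold change of all genes to 0.09. Correlations of same-numbered deviations ran from -0.07 to 0.09, so no pairing by column number was seen. They cannot exclude a pairing by litter, which the labels do not name. With the replicate block 5 factors were higher and 0 lower. Of the 6 ratios 0 passed, but 1 did with a pseudocount of 1 (Twist1 to Twist2), and 0 to 1 when each lung was left out. Without IncPBF lung 3 that was Tbx2 to Tbx4, and without sham lung 2 Twist1 to Twist2. Of the 9 ratios of a factor to a neighbour, chosen after the data were seen, 5 passed, and 3 to 5 with each lung left out. Among these, Meox2 to Agmo and Twist1 to Hdac9 add little to the results of the single genes. Changes of sign were all near 0. Tbx2 was 0.00094 with an equal total and 0.0018 with limma-voom, Tbx5 was 0.0734 with the Xist covariate, and Tcf21 was 0.0535 with an equal total, 0.0120 with quantile normalization and 0.0541 with limma-voom. With each lung left out Tbx4 ran from -0.00763 to 0.0768, Tcf21 from -0.0616 to 0.0262 and the Foxf2 to 1700018A04Rik ratio from -0.15 to 0.00217. The cause was not tested. The log2 fold change of Twist1 ran from 1.00 (pseudocount of 1) to 2.46 (limma-voom). Depth limits both Twist genes.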
